A study of Mus musculus with 4 samples.

Results

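BAFF and APRIL, the cytokines that keep B cells and plasma cells alive, were followed with their receptors through the leukocytes of mouse pancreatic tumors. The 5 genes were taken by name from the 32285 genes in the count table: the ligands Tnfsf13b (BAFF) and Tnfsf13 (APRIL), and the receptors Tnfrsf13b (TACI), Tnfrsf13c (BAFF receptor) and Tnfrsf17 (BCMA). All 5 were detected. Subcutaneous tumors of the mouse pancreatic cancer line KPC had been grown in male C57BL/6 mice of 8 to 10 weeks. Mice were left untreated, received the STING agonist ADU-S100 (2 µg into the tumor), received the agonistic antibody 4H8 to the lymphotoxin β receptor (LTβR, 100 µg per dose into the abdomen), or received both, and tumors were taken on day 14. ADU-S100 was injected a single time, at the start, and the antibody 4 times up to day 10. The agonists thus differed in the time from last dose to harvest. For each of these 4 groups, 10 tumors were pooled, live CD45+ cells were sorted and 1 droplet library was made, so that no spread between animals can be given and no test between treatments was possible. All mice carried the same tumor line in the same place, and the untreated library is the only control.

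BAFF and APRIL are made mainly by myeloid cells. Furin, a protease, releases them from their precursors, and APRIL also docks on the sugar chains of syndecans. The BAFF receptor binds BAFF alone and supports mature B cells; TACI binds both ligands and is known from memory and marginal zone B cells; BCMA binds both, with a preference for APRIL, and is known from plasma cells. Downstream, TRAF3 holds down the kinase NIK (Map3k14), and its release leads to the alternative NF-κB subunits Nfkb2 and Relb.

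In the mouse genome GRCm38, Tnfsf13b lies on chr8:10006467-10039072 (plus strand), Tnfsf13 on chr11:69682846-69685784 (minus strand), Tnfrsf13b on chr11:61126755-61149372 (plus strand), Tnfrsf13c on chr15:82221743-82224369 (minus strand) and Tnfrsf17 on chr16:11313812-11320074 (plus strand). Tnfsf13 shares its locus with Tnfsf12 and with the antisense gene Tnfsf13os, and reads of overlapping genes may not be fully separated. STING activation is known to induce interferons and LTβR to activate NF-κB, so the 250 bases before annotated RefSeq start sites were searched, on both strands, for the interferon-stimulated response element GAAANNGAAA, the gamma-activated sequence TTCNNNGAA and the kappaB motif. Of 32841 such windows over all genes, 2.98% held the first, 7.02% the second and 7.25% the third. The windows of the BAFF ligand and of TACI and the BAFF receptor, whose RNA had the widest and a narrow range of cells, are shown here, 5′ to 3′ on the gene's strand, at chr8:10006217-10006466, chr11:61126505-61126754 and chr15:82224381-82224630; none of the 3 held a match, so no letters are in capitals.
Tnfsf13b: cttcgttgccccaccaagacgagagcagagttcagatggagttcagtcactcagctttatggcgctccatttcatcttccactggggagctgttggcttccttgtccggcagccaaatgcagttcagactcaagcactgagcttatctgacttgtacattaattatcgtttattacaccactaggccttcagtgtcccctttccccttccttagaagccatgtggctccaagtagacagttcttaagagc
Tnfrsf13b: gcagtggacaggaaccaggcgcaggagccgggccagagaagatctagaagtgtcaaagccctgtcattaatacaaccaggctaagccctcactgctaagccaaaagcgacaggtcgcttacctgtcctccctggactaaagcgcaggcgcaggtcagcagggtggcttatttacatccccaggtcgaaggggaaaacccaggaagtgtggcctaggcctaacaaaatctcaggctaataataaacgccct
Tnfrsf13c: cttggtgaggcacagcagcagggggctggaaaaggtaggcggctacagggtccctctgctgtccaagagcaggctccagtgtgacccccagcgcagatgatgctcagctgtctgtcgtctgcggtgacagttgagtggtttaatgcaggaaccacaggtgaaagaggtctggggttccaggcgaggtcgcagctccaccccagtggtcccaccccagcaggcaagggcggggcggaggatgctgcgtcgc
Tnfsf13b has another RefSeq start site 3′ of this one, at position 10006633 of chromosome 8, and the window before that start held 1 match on the plus strand, from 16 to 7 bases upstream. It is shown in capitals within 30 bases (chr8:10006607-10006636), a stretch that the annotation also counts as exon of the transcript from the upstream start.
Tnfsf13b second start: tacaaaaactGAAAGTGAAAtgcggaaggc
For Tnfrsf17, the window held 1 match to the response element on the minus strand, from 101 to 92 bases upstream, and for Tnfsf13 the window, which overlaps an annotated exon, held none. A match of letters is a description and does not show binding.

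After filtering on genes and mitochondrial content, 23011 of 24839 barcodes remained: 6783 untreated, 3748 with STING agonist, 7147 with LTβR agonist and 5333 with the combination, at a median of 5750 to 7094 UMIs (unique molecules) per cell. Among all barcodes, 284 barcode sequences occurred in 2 or more libraries, which concerned 568 barcodes. Clusters were computed without the 5 genes and named from marker genes, and the ending "-like" marks names rebuilt from RNA. Levels are the UMIs of a gene per 1000000 UMIs of the cells in question (CPM), with exact 95% Poisson intervals that cover counting error only; they say nothing of the spread between mice. Since 1 library stood for each treatment, a ratio below is read only against its counting interval.

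Tnfsf13b RNA was carried by macrophages and, unlike Tnfsf13, also by T cells. Of 1952 Tnfsf13b UMIs, 67.8% lay in macrophage- or monocyte-like cells and 20.5% in T-like cells, with 4.87% in dendritic-like and 2.31% in neutrophil-like cells. These classes made up 39.5%, 32.6%, 8.0% and 4.23% of the cells, in that order. In macrophage- or monocyte-like cells, the level was 17.4 CPM untreated (488 UMIs in 3053 cells), 17.7 CPM with STING agonist (274 UMIs), 12.8 CPM with LTβR agonist (311 UMIs) and 17.4 CPM with the combination (250 UMIs). The LTβR agonist library was thus the low one, at 0.734 times the untreated level (95% interval 0.635 to 0.848), and its interval of 11.4 to 14.3 CPM was apart from those of the other 3. The combination did not differ from the untreated library beyond counting error, with a log2 ratio of 0.00 (-0.23 to 0.22). With clusters at resolution 2, however, this ratio fell below that interval, so the order of the libraries holds for the clusters as reported.

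**Figure D1:**
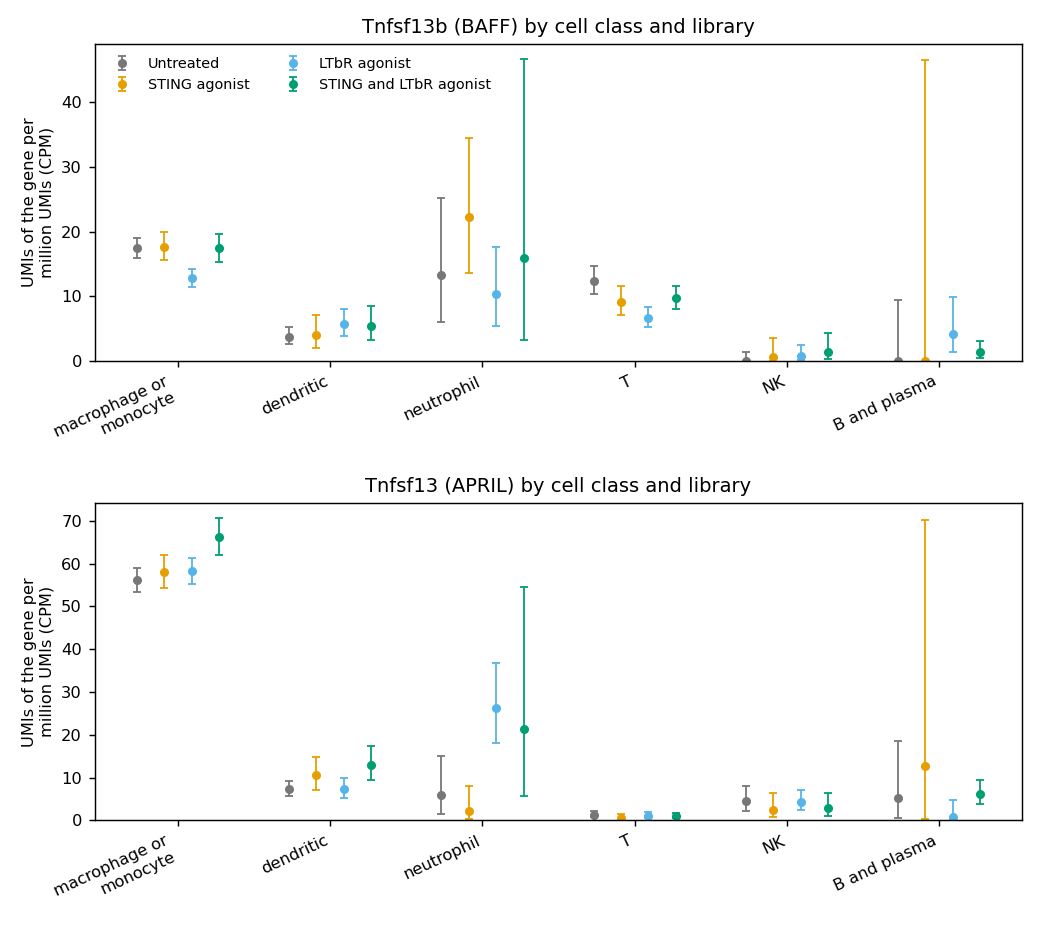
Level of Tnfsf13b (upper) and Tnfsf13 (lower) in CPM (y axis) for each cell class (x axis) and library (color), with points for the library and bars for the exact 95% Poisson interval. Tnfsf13b was shared by macrophage- or monocyte-like, neutrophil-like and T-like cells. It was lowest among the 4 libraries with LTβR agonist in macrophage- or monocyte-like and T-like cells. The neutrophil-like values rest on 9, 20, 13 and 3 UMIs, with overlapping intervals. In dendritic-like cells LTβR agonist was the highest library, at 1.515 times untreated, from 32 and 33 UMIs. Tnfsf13 stood at 56.1 to 66.2 CPM in macrophage- or monocyte-like cells and near 1 CPM in T-like cells.

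In T-like cells, too, the LTβR agonist library was the low one, while the untreated library was the high one. Their Tnfsf13b level was 12.4 CPM untreated (133 UMIs), 9.19 with STING agonist (73 UMIs), 6.66 with LTβR agonist (74 UMIs) and 9.69 with the combination (121 UMIs). Against untreated, the LTβR agonist library was at 0.537 times the level (0.399 to 0.719) and the STING agonist library at 0.742 times (0.550 to 0.994). The combination was at a log2 ratio of -0.36 (-0.72 to 0.01), an interval that includes no difference. Added to STING agonist, the antibody went with a log2 ratio of 0.08, against -0.90 when given alone; the difference between these was 0.97 (0.39 to 1.56) on the log2 scale. In macrophage- or monocyte-like cells the same difference was 0.43 (0.10 to 0.75). That value is for the clusters as reported. With clusters at resolution 2 the ratio of the combination to untreated there was lower. Within the classes the difference was 0.71 (-0.029 to 1.455) in T-like cluster 17, the main T-like source. It was 0.20 (-0.21 to 0.62) in C1q Trem2 and 2.23 (0.91 to 3.55) in Cxcl9 macrophage-like cells. T-like cluster 17 was 629 of 1929 T-like cells untreated and 485 of 2134 with LTβR agonist. The part of such shifts in the class values was not tested.

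Dendritic-like cells held little Tnfsf13b, at 3.75 CPM untreated, 4.06 with STING agonist, 5.68 with LTβR agonist and 5.41 with the combination, from 33, 12, 32 and 18 UMIs. The log2 ratio of the combination to untreated was 0.53 (-0.39 to 1.40), and its direction turned to -1.73 with clusters at resolution 2. Without the 10 cells richest in the gene in each library it was -2.71. That step removed unlike shares of the 33 and 18 UMIs, and nothing is read from it. Neutrophil-like cells had 13.3, 22.3, 10.3 and 15.97 CPM in the same order, but from 9, 20, 13 and 3 UMIs, and all their intervals overlapped. NK-like cells had 7 Tnfsf13b UMIs in 1889 cells, and the 788 B- and plasma-like ones had 10.

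Within the myeloid cells the ligands marked different populations. Tnfsf13b was highest in 3 macrophage populations: macrophage- or monocyte-like cluster 9 (33.2 CPM, 24.9 to 43.4), the resident-type macrophage-like cells led by Retnla, Ccl8 and Mrc1 (31.2 CPM, 26.5 to 36.5) and the C1q Trem2 macrophage-like cells led by C1qa, C1qb and Apoe (26.3 CPM, 24.5 to 28.1). Neighbours in this order did not differ beyond their intervals. Inflammatory macrophage-like cells, led by Inhba, Spp1 and Arg1, had 12.9 CPM (11.0 to 15.1). Monocyte-like cells had 5.26 CPM (3.88 to 6.97) and Cxcl9 macrophage-like cells 4.16 CPM (3.37 to 5.07). No Tnfsf13b UMI was found in the 275 plasmacytoid dendritic-like cells, where 3 counts would have been 1.19 CPM.

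**Figure D2:**
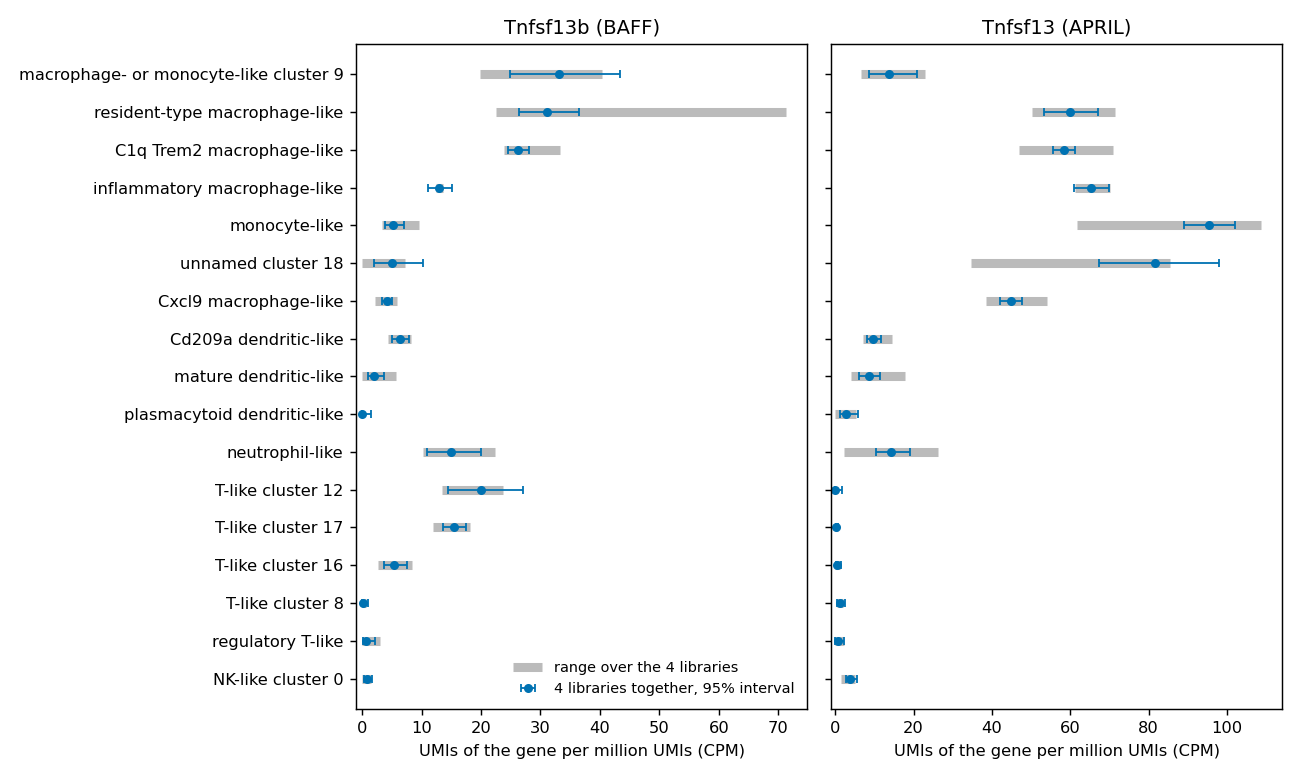
Level of Tnfsf13b (left) and Tnfsf13 (right) in CPM (x axis) in single populations (y axis): points are the 4 libraries together with 95% Poisson intervals, and gray bars run from the lowest to the highest library. Tnfsf13b peaked in macrophage cluster 9, resident-type and C1q Trem2 macrophage-like cells, Tnfsf13 in monocyte-like cells at 95.3 CPM, where Tnfsf13b stood at 5.26 CPM.

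Although BAFF is known as an interferon-inducible gene, Tnfsf13b was not highest where interferon-stimulated genes were. Of 11 listed interferon-stimulated genes, 10 were found in the table, and their summed level was highest in the Cxcl9 macrophage-like cells, at 9311 CPM, where Tnfsf13b stood at 4.16 CPM; interferon-stimulated genes such as Cxcl10 and Rsad2 also led that cluster. The sum was 1396 CPM in resident-type macrophage-like cells, where Tnfsf13b stood at 31.2 CPM. The sum was lowest in plasmacytoid dendritic-like cells, at 1235 CPM, where no Tnfsf13b UMI was found. Over these 9 myeloid populations low sums thus went with high and with absent Tnfsf13b, and the values are a description.

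C1q Trem2 macrophage-like cells gave 41.5% of all Tnfsf13b UMIs from 13.9% of the cells. Their level was 23.8 CPM untreated, 28.4 with STING agonist, 24.2 with LTβR agonist and 33.2 with the combination, so that here the combination was the high library, at 1.40 times the untreated level (1.14 to 1.71). A single cell gave 15 of its 141 UMIs. The LTβR agonist library, low over the whole class, was not low in these cells, at a log2 ratio of 0.02. They made up 1352 of 3053 macrophage- or monocyte-like cells untreated and 730 of 2848 with LTβR agonist.

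In resident-type macrophage-like cells the untreated library, the lowest in C1q Trem2 cells, was the highest: 71.3 CPM untreated (53 UMIs in 66 cells), 29.7 with STING agonist (8 UMIs in 31 cells), 25.2 with LTβR agonist (47 UMIs in 216 cells) and 22.6 with the combination (48 UMIs in 296 cells). All 3 treated libraries were below it by the intervals of their ratios, at 0.417 times (0.171 to 0.882) with STING agonist, 0.353 times (0.233 to 0.533) with LTβR agonist and 0.316 times (0.210 to 0.477) with the combination. In the untreated library 27 of the 66 cells held a UMI, and no cell held more than 4. Median depth was 10825.5 UMIs per cell untreated and 5423 with the combination. At resolution 2, a cluster led by Retnla, Lyz1 and Chil3 had 33 untreated and 268 combination cells. Another, led by Ccl8, Vcam1 and C4b, had 53 and 68. The libraries may thus hold unlike mixtures of these macrophages, and the part of this in the ratios was not tested. Cxcl9 macrophage-like cells had 5.82 CPM untreated, 2.99 with STING agonist, 2.12 with LTβR agonist and 5.11 with the combination, from 50, 14, 13 and 20 UMIs. Either agonist alone went with a lower level, at 0.513 times (0.262 to 0.942) and 0.364 times (0.182 to 0.681), and the combination with a level that did not differ beyond counting error.

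Among T-like cells, Tnfsf13b was higher in cells with CD8 than with CD4 UMIs, though not in every cluster with CD8 genes in the lead. Cells with a Cd8a or Cd8b1 UMI and no Cd4 UMI had 12.9 CPM (11.5 to 14.4, 307 UMIs in 3366 cells), while cells with a Cd4 UMI alone had 4.48 CPM (3.10 to 6.26, 34 UMIs in 1529 cells). In the CD8 cells the libraries stood at 16.3 CPM untreated, 12.5 with STING agonist, 9.50 with LTβR agonist and 12.5 with the combination, so that untreated was again the highest and LTβR agonist the lowest. By cluster, 261 of the 401 T-like UMIs came from T-like cluster 17, led by Cd8a, Prf1 and Lag3, at 15.5 CPM. T-like cluster 23, with Gzmk and Cd8b1 among its leading genes, had 3.90 CPM (1.945 to 6.97, 11 UMIs in 574 cells). Cluster 16, led by Cd4, had 5.34 CPM (3.65 to 7.53). Regulatory T-like cells, led by Foxp3, had 2 UMIs in 769 cells, and cluster 8, led by Tcf7 and Lef1, had 1 UMI in 1005 cells. T-like cluster 12 had 20.04 CPM. This cluster and macrophage- or monocyte-like cluster 9 were led by long genes, with a median genomic length of 307655 and 362890 bases for the 10 leading genes, against 12407 bases over 31461 genes; the part of this in their Tnfsf13b level was not tested.

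Macrophage transcripts in T-like cells were counted beside these values. All 19 macrophage or monocyte markers were found there, at a summed 1460 to 1736 CPM over the libraries, against 17430 to 23080 CPM in the macrophage- or monocyte-like cells. Tnfsf13 and Tnfsf13b had 4835 and 1323 UMIs in macrophage- or monocyte-like cells and 44 and 401 UMIs in T-like cells, so their counts were not in 1 ratio in both classes.

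Tnfsf13 (APRIL) was almost wholly myeloid. Of its 5523 UMIs, 87.5% were in macrophage- or monocyte-like cells and 0.797% in T-like cells. The macrophage- or monocyte-like level was 56.1 CPM untreated (1569 UMIs), 58.0 with STING agonist (900 UMIs), 58.2 with LTβR agonist (1415 UMIs) and 66.2 with the combination (951 UMIs). The combination library was the high one, at 1.18 times untreated (1.09 to 1.28), and its intervals also lay above 1 against STING agonist (1.14 times) and against LTβR agonist (1.14 times). In the C1q Trem2 macrophage-like cells alone it was at 1.01 times untreated (0.869 to 1.17). Monocyte-like cells, the highest for this gene, were 232 of 3053 cells of the class untreated and 286 of 1708 with the combination. The part of this in the class ratio was not tested. Over the whole class, none of Tnfsf13b, Tnfsf13 and Tnfrsf13b, the 3 with enough UMIs, passed 1.5-fold in any treated library against untreated. Over all genes with at least 50 UMIs, 2.29% were that much higher and 2.87% that much lower with STING agonist, 5.58% and 3.71% with LTβR agonist, and 6.5% and 4.65% with the combination.

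Monocyte-like cells, led by Hp, Lyz2, Vcan and Ace, had the highest Tnfsf13 level, 95.3 CPM (89.1 to 102). Cluster 18, which stayed unnamed and was led by Ace, Adgre4 and Ear2, had 81.6 CPM (67.3 to 98.0), an interval that met that of the monocyte-like cells. Inflammatory, resident-type and C1q Trem2 macrophage-like cells followed at 65.3, 59.9 and 58.3 CPM and did not differ as neighbours, and Cxcl9 macrophage-like cells stood apart at 44.8 CPM (42.1 to 47.6). Cluster 9, the highest for Tnfsf13b, had 13.8 CPM of Tnfsf13.

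Treatments moved differently through these populations. In monocyte-like cells Tnfsf13 was 94.7 CPM untreated, 61.7 with STING agonist, 97.6 with LTβR agonist and 109 with the combination, from 175, 71, 373 and 251 UMIs. Only the STING agonist library was low, at 0.651 times untreated (0.487 to 0.863), and the combination was at 1.76 times STING agonist (1.35 to 2.33). In C1q Trem2 macrophage-like cells STING agonist was the high library: 57.3 CPM untreated, 70.9 with STING agonist, 47.0 with LTβR agonist and 57.8 with the combination. There STING agonist was at 1.24 times untreated (1.10 to 1.39) and LTβR agonist at 0.820 times (0.716 to 0.938).

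Dendritic-like cells had 7.27 CPM of Tnfsf13 untreated, 10.5 with STING agonist, 7.27 with LTβR agonist and 12.9 with the combination, from 64, 31, 41 and 43 UMIs. The combination was at 1.78 times untreated (1.18 to 2.66). Of the 3 tested genes in these cells it was the only one past 1.5-fold higher there, where 4.13% of all genes were, and none was past 1.5-fold lower, where 6.31% were. In the Cd209a dendritic-like cells the level was 7.07, 14.5, 9.35 and 13.4 CPM in the same order, with STING agonist at 2.05 times untreated (1.21 to 3.43) and the combination at 1.89 times (1.13 to 3.14). All 3 dendritic-like populations stayed under 10 CPM over the libraries together.

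Neutrophil-like cells had 4, 2, 33 and 4 Tnfsf13 UMIs, which is 5.91, 2.23, 26.2 and 21.3 CPM. The level with LTβR agonist was 4.43 times untreated (1.58 to 17.2), and a single cell held 6 of the 33 UMIs. The summed level of macrophage or monocyte markers in neutrophil-like cells ran from 6520 to 10280 CPM over the libraries; its part in this result was not tested.

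**Figure D3:**
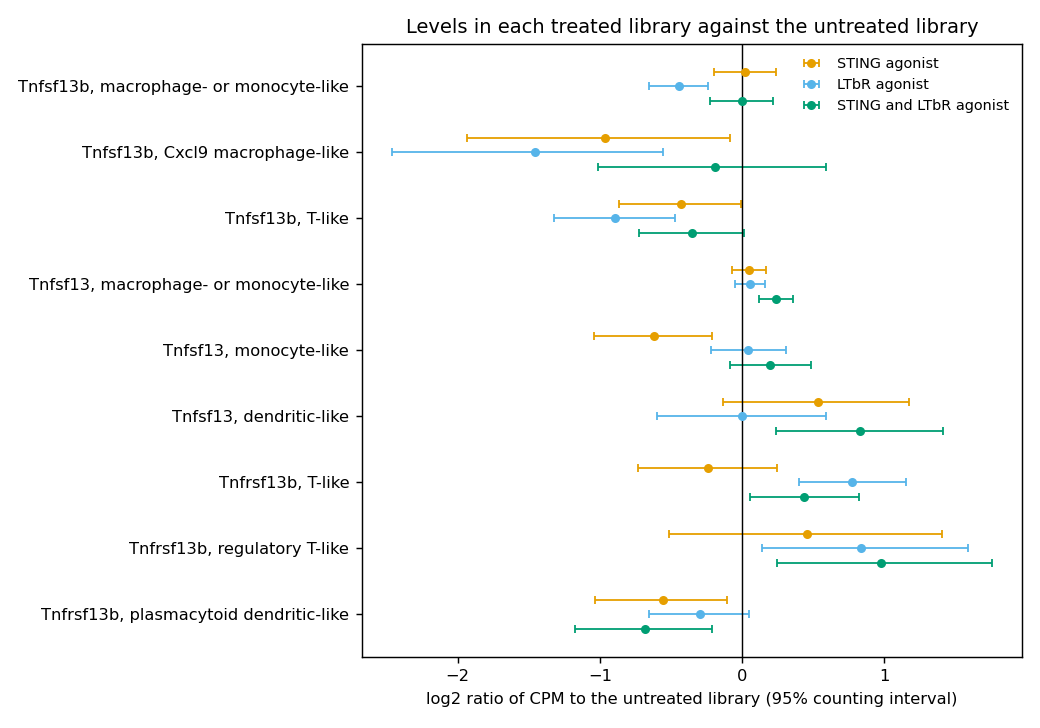
Log2 ratio of the level in each treated library to the untreated library (x axis) for 9 pairs of gene and population (y axis); points are ratios, colors the treated library and bars 95% intervals of counting error. Tnfsf13b was below untreated with LTβR agonist in T-like cells at -0.90 and in Cxcl9 macrophage-like cells at -1.46, Tnfsf13 in monocyte-like cells was low with STING agonist alone at -0.62, and Tnfrsf13b in regulatory T-like cells was above 0 with LTβR agonist at 0.84 and with the combination at 0.98.

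The partners of the ligands were described from a list of 5 genes. In macrophage- or monocyte-like cells 4 had enough UMIs; with the combination, 1 was past 1.5-fold lower and none higher, where 4.65% and 6.5% of all genes were, and the median log2 ratio was -0.44 against 0.05 over all genes. The lower gene was Sdc1 (syndecan 1, at which APRIL can dock), at 35.0 CPM untreated and 20.8 CPM with the combination, 0.593 times (0.519 to 0.676). Sdc4, another syndecan, was at 0.688 times (0.664 to 0.713) and Furin at 0.794 times (0.757 to 0.833), while Tnfsf12, the neighbour of Tnfsf13, was at 1.12 times (1.02 to 1.24). Sdc1 was among the leading genes of a macrophage- or monocyte-like cluster at resolution 2, led by Inhba and Arg1. That cluster had 525 untreated and 123 combination cells. The part of such shifts in these ratios was not tested. With either agonist alone none of the 4 passed 1.5-fold. In T-like cells Furin was higher with LTβR agonist, at 110 CPM against 62.6 CPM untreated, 1.75 times (1.59 to 1.93); of the 3 genes tested there 2 were past 1.5-fold higher and 1 lower, where 4.49% and 3.81% of all genes were. The antisense gene Tnfsf13os had 586 UMIs in macrophage- or monocyte-like cells, where Tnfsf12 had 3170.

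TACI RNA reached far beyond the B lineage. Of 4939 Tnfrsf13b UMIs, 51.2% were in the macrophage- or monocyte-like class, 21.4% in the dendritic-like class, 11.9% in B- and plasma-like cells and 9.46% in T-like cells. These classes made up 39.5%, 8.0%, 3.42% and 32.6% of the cells, in that order. Its level was highest in plasmacytoid dendritic-like cells (164 CPM, 148 to 180), memory B-like cells (154.5 CPM, 136 to 175) and plasma-like cells (150 CPM, 121 to 184), whose intervals overlapped with each other. Follicular B-like cells stood at 94.1 CPM (79.7 to 110), regulatory T-like cells at 54.7 CPM (47.0 to 63.3) and Cd209a dendritic-like cells at 42.7 CPM (39.3 to 46.4).

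These UMIs did not come with those of Cd79a, a defining B cell gene. B- and plasma-like cells held 10800 Cd79a and 590 Tnfrsf13b UMIs. Macrophage- or monocyte-like cells held 50 Cd79a and 2527 Tnfrsf13b UMIs, and 1938 of their 1944 Tnfrsf13b-positive cells had no Cd79a UMI. Plasmacytoid dendritic-like cells held 412 Tnfrsf13b UMIs and no Cd79a or Ms4a1 UMI. Of the 275 plasmacytoid cells 64.0% had a Tnfrsf13b UMI, against 0.900% of 1889 NK-like cells, at median depths of 9025 and 4310 UMIs; with each cell thinned to 1000 UMIs the shares were 11.6% and 0.163%.

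**Figure D4:**
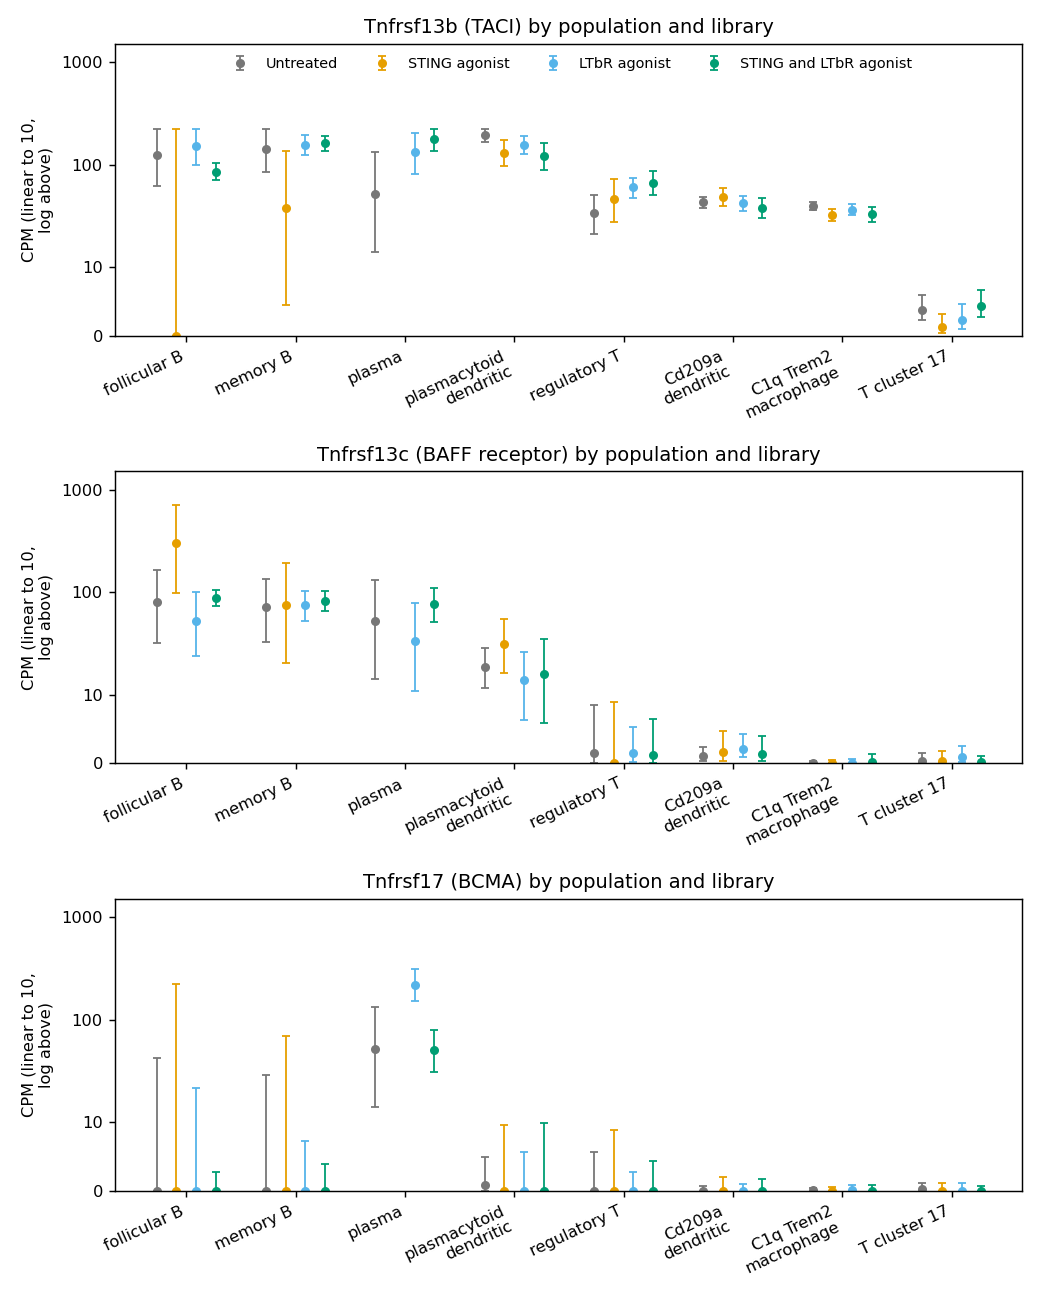
Level of Tnfrsf13b, Tnfrsf13c and Tnfrsf17 (top to bottom) in CPM (y axis, linear to 10 and logarithmic above) in 8 populations (x axis) and 4 libraries (color), with 95% Poisson intervals; no STING agonist point stands for plasma-like cells because there were none. Tnfrsf13b stood at 120 CPM or more in plasmacytoid dendritic-like cells in each library, Tnfrsf13c at 13.9 to 31.5 CPM there, and Tnfrsf17 at 51.1 to 220 CPM in plasma-like cells.

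Over the whole B and plasma class, Tnfrsf13b was 103 CPM untreated (40 UMIs in 59 cells), 37.8 with STING agonist (3 UMIs in 15 cells), 123 with LTβR agonist (145 UMIs in 176 cells) and 109 with the combination (402 UMIs in 538 cells). The log2 ratio of the combination to untreated was 0.08 (-0.39 to 0.59), but it was 1.12 with classes set by marker level per cell. It thus depended on which cells were counted. Without the 10 cells richest in the gene in each library it was 0.96. That step took a larger share of the 22 untreated cells with a UMI than of the 203 with the combination. Nothing is read from it. In the clustered cells neither this gene nor Tnfrsf13c passed 1.5-fold, where 15.4% of all genes with enough UMIs were that much higher and 8.63% that much lower. Within follicular B-like cells the combination was below LTβR agonist, 85.7 against 152 CPM, at 0.562 times (0.364 to 0.897). In memory B-like cells it was level with it, 161 against 157 CPM. Plasma-like cells had 51.9 CPM untreated from 4 UMIs, 133 with LTβR agonist from 20 and 176 with the combination from 69.

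Plasmacytoid dendritic-like cells had 193 CPM untreated (215 UMIs in 113 cells), 131 with STING agonist (50 UMIs in 36 cells), 157 with LTβR agonist (102 UMIs in 82 cells) and 120 with the combination (45 UMIs in 44 cells). Both libraries with STING agonist were low, at 0.679 times (0.489 to 0.927) and 0.624 times (0.442 to 0.863) the untreated level. In macrophage- or monocyte-like cells the level was 33.7 CPM untreated, 29.9, 29.5 and 28.1 CPM with STING agonist, LTβR agonist and the combination. All 3 treated libraries were below untreated, by at most a ratio of 0.832 (0.738 to 0.935).

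T-like cells went the other way. Tnfrsf13b was 8.76 CPM untreated (94 UMIs), 7.43 with STING agonist (59 UMIs), 14.9 with LTβR agonist (166 UMIs) and 11.9 with the combination (148 UMIs), and the 2 libraries with the antibody were the high ones. LTβR agonist was at 1.71 times untreated (1.32 to 2.22) and the combination at 1.35 times (1.04 to 1.77). With LTβR agonist, Tnfrsf13b was thus past 1.5-fold higher and Tnfsf13b past 1.5-fold lower in T-like cells, where 4.49% of all genes were that much higher and 3.81% that much lower. Regulatory T-like cells had 33.6 CPM untreated (22 UMIs in 162 cells), 46.1 with STING agonist (19 UMIs in 100 cells), 60.1 with LTβR agonist (81 UMIs in 339 cells) and 66.3 with the combination (57 UMIs in 168 cells). Their ratios to untreated were 1.79 (1.10 to 3.01) with LTβR agonist and 1.97 (1.19 to 3.39) with the combination. Regulatory T-like cells were 162 of 1929 T-like cells untreated and 339 of 2134 with LTβR agonist. By marker UMIs, CD4 cells had 26.5 CPM (22.9 to 30.4) and CD8 cells 4.50 CPM (3.69 to 5.44), the reverse of Tnfsf13b. B cell markers summed to 34.7 to 74.8 CPM in T-like cells over the libraries, and 359 of 362 Tnfrsf13b-positive T-like cells held no Cd79a UMI.

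Tnfrsf13c (BAFF receptor) was found mainly in B cells and plasmacytoid dendritic-like cells. Of its 503 UMIs, 361 were in B- and plasma-like and 48 in plasmacytoid dendritic-like cells, while T-like cells held 33 and NK-like cells 20. Follicular B-like, memory B-like and plasma-like cells had 86.0 CPM (72.2 to 102), 79.1 CPM (66.1 to 93.9) and 63.0 CPM (44.8 to 86.1), with overlapping intervals. Plasmacytoid dendritic-like cells had 19.1 CPM (14.1 to 25.3), apart from B cells above and from T-like cluster 23 below, which had 2.83 CPM. In macrophage- or monocyte-like cells there were 16 UMIs in 9085 cells, and in neutrophil-like cells none in 973 cells. In B- and plasma-like cells the libraries stood at 59.2 CPM untreated (23 UMIs), 114 with STING agonist (9 UMIs), 59.6 with LTβR agonist (70 UMIs) and 70.2 with the combination (259 UMIs), and all their intervals overlapped. The log2 ratio of the combination to untreated was 0.25 (-0.37 to 0.93), but it was 2.07 with classes set by marker level per cell. Without the 10 cells richest in the gene in each library it was 1.76. That step took a larger share of the 15 untreated cells with a UMI than of the 155 with the combination. Nothing is read from it.

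Over all filtered cells, Tnfrsf13c was 1.24 CPM untreated, 1.08 with STING agonist, 2.27 with LTβR agonist and 7.56 with the combination, the last at 6.09 times untreated (4.65 to 8.06). It was the only one of the 4 genes tested past 1.5-fold in this comparison, where 9.12% of all genes were that much higher and 7.46% that much lower. Cells of the B and plasma class made up 0.870% of the library untreated, 0.400% with STING agonist, 2.46% with LTβR agonist and 10.1% with the combination. Giving the untreated level of each class the combination's numbers of cells and depth returned 6.38 CPM, and giving the combination's levels the untreated makeup returned 1.51 CPM. In such sums, more cells of a type and more RNA per cell cannot be told apart without the split by class. That split takes whole classes, so a shift between populations within a class counts as level. For Tnfsf13b the combination's makeup alone gave 0.901 times untreated and its levels alone 0.975 times; for Tnfsf13 they gave 0.759 and 1.22 times, in opposite directions, and the total was at 0.921 times (0.854 to 0.993). Tnfrsf13b totals were 30.5, 23.7, 28.2 and 30.5 CPM untreated, with STING agonist, LTβR agonist and the combination.

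**Figure D5:**
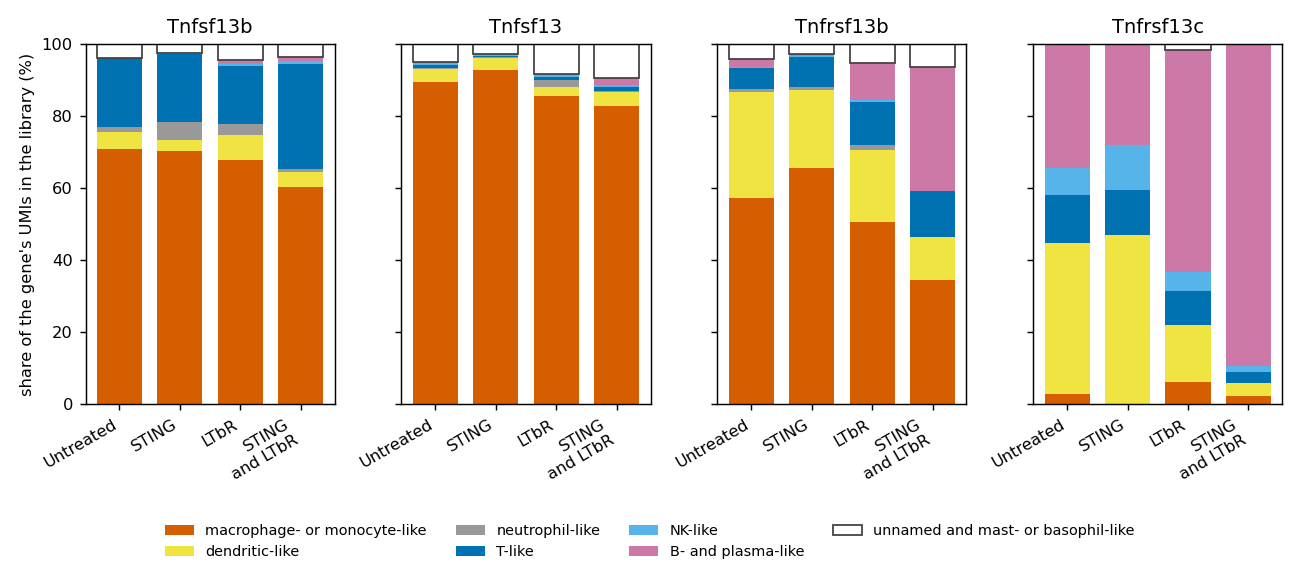
Share of the UMIs of 4 genes (y axis, percent of the gene's UMIs in the library) by cell class (color) in each library (x axis); white stands for unnamed clusters and mast- or basophil-like cells. B- and plasma-like cells gave 2.43% of Tnfrsf13b UMIs untreated and 34.4% with the combination, and 34.3% and 89.3% of Tnfrsf13c UMIs.

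Tnfrsf17 (BCMA) was found mainly in plasma-like cells. Of 67 UMIs in the filtered cells of all libraries, 57 were in the 34 plasma-like cells, which were led by Jchain, Slpi and Mki67. The untreated library had 4 UMIs in 1 of 4 plasma-like cells. The LTβR agonist library had 33 UMIs in 4 of 8, of which 1 cell held 26, and the combination 20 UMIs in 6 of 22, of which the highest cell held 5. The STING agonist library had no plasma-like cell and no Tnfrsf17 UMI in 3748 filtered cells. These counts depend on the filter, which left out barcodes with more than 5000 genes. Plasma-like cells that passed had a median of 17919 UMIs, against 6332 over all filtered cells. With all deposited barcodes, the ratios of the combination to untreated for this gene fell below their counting intervals. This held in B- and plasma-like cells and over all cells. The part of each filter limit in this was not tested. The level in plasma-like cells was 51.9 CPM untreated, 220 with LTβR agonist and 51.1 with the combination, and since 26 of 33 UMIs came from 1 cell these levels rest on single cells. Mki67, a proliferation gene, had a UMI in 2, 6 and 14 of the plasma-like cells. Ighm, Top2a and Cenpf were also among their leading genes. Of the 34 cells 11 held a Tnfrsf17 UMI and 15 a Tnfrsf13c UMI. Whether dividing B cells were among them was not tested, and this bears on all receptor levels given for plasma-like cells.

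The receptors were found together in part of the B cells. Of 788 B- and plasma-like cells, 409 (51.9%) had a UMI of any receptor, 309 of Tnfrsf13b, 220 of Tnfrsf13c and 121 of both. A UMI of any receptor was found in 47.5% of these cells untreated, 55.1% with LTβR agonist and 51.3% with the combination. By subset it was 41.4% of follicular B-like, 66.8% of memory B-like and 91.2% of plasma-like cells, whose median depths were 3532, 7138 and 17919 UMIs. At 1000 UMIs per cell, 8.21% of follicular and 12.5% of memory B-like cells had a Tnfrsf13b UMI, with intervals of 5.75 to 11.3% and 8.26 to 17.9%, and 8.70% and 8.50% had a Tnfrsf13c UMI. In plasmacytoid dendritic-like cells 28 of 275 had both Tnfrsf13b and Tnfrsf13c.

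Genes downstream of the receptors were described from lists of 14 signalling and 9 survival genes in the B- and plasma-like cells. With the combination all were tested; 1 signalling gene and 2 survival genes were past 1.5-fold higher than untreated, and none was that much lower, where 15.4% and 8.63% of all genes were. The counts of 1 of 14 and 2 of 9 lay below and above the 15.4%, and with so few genes nothing is read from them; the intervals of Traf2 and Bcl2a1a included 1. The medians were 0.11 and 0.23 on the log2 scale against 0.06 over all genes. The higher genes were Traf2, an adaptor of these receptors (1.53 times, 0.674 to 4.28), Bcl2a1a (2.63 times, 0.867 to 13.1) and Pim2, a kinase known as a BAFF target (28.5 CPM against 10.3 CPM, 2.77 times, 1.05 to 10.3); the untreated values rested on 6, 3 and 4 UMIs. Bcl2a1a shares reads with near-identical copies and is uncertain. Mcl1, which keeps B cells alive, stood at 521 CPM against 517 CPM untreated (1.01 times, 0.871 to 1.17). The alternative NF-κB genes Nfkb2 and Relb were at 1.26 times (0.822 to 2.02) and 1.34 times (0.858 to 2.20), Traf3 at 0.755 times (0.575 to 1.01) and Map3k14 at 0.768 times (0.485 to 1.28). With these counts no difference was detectable for them.

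Genes whose mean levels ran most like those of the members over the 26 clusters, among 10859 genes, were Tmem273 (Pearson's r 0.85), Stard9 (0.81) and Mrc1 (0.81) for Tnfsf13b, and Gm36161 (0.95), Clec4a3 (0.94) and Clec4a1 (0.93) for Tnfsf13. For Tnfrsf13b they were Rufy1 (0.82), Serp1 (0.82) and Bcl11a (0.78). For Tnfrsf13c and Tnfrsf17 they were immunoglobulin and B cell genes such as Iglc1 (0.98), Mzb1 (0.97) and Pax5 (0.97), since 1 of the 26 clusters held the B- and plasma-like cells. The clusters share libraries and depth, and the values are descriptions.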

How the data were processed

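Droplet single-cell RNA sequencing of sorted CD45+ tumor leukocytes gave 4 libraries, 1 per treatment group. The authors used 10x Genomics 5-prime chemistry and Cell Ranger 7.1.0 with the mm10 reference, and deposited raw UMI counts of 32285 genes in 24839 barcodes, told apart by the barcode ending; they describe more than 1 single-cell experiment, and the sources used here do not say which gave this table, nor whether intronic reads were counted.

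The limits stated by the study were applied here (300 to 5000 genes, at most 6% mitochondrial UMIs; 92.6% of barcodes kept). Cells were scaled to 10000 UMIs, and 2000 variable genes, without the 5 genes and V(D)J genes, were reduced to 30 components and clustered (20 neighbours, Leiden resolution 1, scanpy 1.11.5, Python 3.11.15), with no batch correction. Names needed at least 3 detected markers; 2 of 26 clusters stayed unnamed. Doublets were kept, and Scrublet scores above 0.2 marked 76 to 238 cells a library, left out as an alternative.

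UMIs were summed per library and population and given as CPM with exact Poisson intervals. Ratios have exact conditional intervals and shares Clopper-Pearson intervals, all at 95%. Genes with at least 50 UMIs in the libraries compared were counted as past 1.5-fold; an absence is read against 3 counts. Ratio intervals were tested on simulated data. With 1 library per group no test was made between treatments. Promoter sequences are from RefSeq (GRCm38.p6), found for all 5 genes, and gene positions from GENCODE (GRCm38, the assembly of mm10). The gene set, the lists and the settings were chosen with earlier results of these data known. Genes were named by fixed lists and, for like patterns, as the 5 with the highest Pearson correlation over clusters, of which up to 3 are given. The other leading genes named are those of each cluster.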

Additional observations from a re-analysis of the deposited data

Results flagged for a closer look

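Values of a gene whose counting intervals lay on opposite sides of no change in different cells, under the same treatment against untreated, were singled out. The differences between the cells were not tested, and each rests on 1 library per treatment. All values are log2 ratios to untreated.

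Tnfsf13b with the combination was 0.48 in C1q Trem2 macrophage-like cells and -1.66 in resident-type macrophage-like cells, which had 66 cells in the untreated library.

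Tnfsf13 with STING agonist was 0.31 in C1q Trem2 macrophage-like and 1.03 in Cd209a dendritic-like cells (1.035 before rounding, from 27 UMIs) and -0.62 in monocyte-like cells.

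Tnfrsf13b with LTβR agonist was 0.77 in T-like and -0.20 in macrophage- or monocyte-like cells; by population it was 0.84 in regulatory T-like cells and -1.76 in unnamed cluster 18, where 9 and 8 UMIs were compared. With the combination it was 0.44 in T-like, -0.27 in macrophage- or monocyte-like and -0.39 in dendritic-like cells; by population it was 0.98 in regulatory T-like, 1.76 in plasma-like, -0.52 in monocyte-like and -0.68 in plasmacytoid dendritic-like cells.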

How the results depend on the processing

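Values are log2 ratios of the combination to untreated unless said otherwise, and the cause of the differences below was not tested. Under the alternatives 101 such values moved by less than the counting interval and 11 by more, and none was counted as reversed. Tnfsf13b in dendritic-like cells did change sign, but its interval as reported included no difference. With clusters at resolution 2, Tnfsf13b was -0.40 in macrophage- or monocyte-like cells (as reported, 0.00) and -1.73 in dendritic-like cells (0.53), and without the 10 cells richest in the gene it was -2.71 in dendritic-like cells. For the B and plasma class, membership set by marker level per cell gave 1.12 for Tnfrsf13b (0.08) and 2.07 for Tnfrsf13c (0.25). Leaving out the 10 richest cells gave 0.96 and 1.76. Cells with a UMI were 22 and 15 untreated and 203 and 155 with the combination. Removing 10 cells took unlike shares of the libraries, here and in dendritic-like cells, and nothing is read from those values. With all deposited barcodes, Tnfrsf17 was -3.16 in B- and plasma-like cells (-0.92) and 0.62 over all cells (2.08). With 10 CPM added, Tnfrsf13c over all cells was 0.64 (2.61) and Tnfrsf17 0.066. Both genes lay below 10 CPM over all cells in both libraries, so the addition by itself pulls these ratios toward no change. With LTβR agonist against untreated, Tnfsf13b ran from -0.53 to -0.27 in macrophage- or monocyte-like cells (-0.45) and from -1.15 to -0.43 in T-like cells (-0.90).

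No paired analysis was possible because each treatment has 1 library. For the same reason leaving out a library was not possible, and differences between mice, pools or library preparations cannot be told apart from treatment. After filtering, the STING agonist library had 15 B- and plasma-like cells and no plasma-like cell, and the untreated library 59 and 4. This limits the depth behind the receptors on B cells.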

Other observations

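Cluster 7 stayed unnamed because its cells scored best for macrophage or monocyte markers while its leading genes (Tnfrsf4, Il2ra, Ctla4) were T cell genes, with a median of 13160 UMIs per cell. Its 569 cells held 63 Tnfsf13b, 242 Tnfsf13 and 191 Tnfrsf13b UMIs, which is 8.37, 32.2 and 25.4 CPM, and 2 Tnfrsf13c UMIs. B sub-clusters left unnamed for leading myeloid or T cell genes (134 cells) held 26 of the 27 Tnfsf13 UMIs found in B- and plasma-like cells, 23 of them in the combination library, and 9 of their 10 Tnfsf13b UMIs. Follicular B-like cells, memory B-like cells and plasma-like cells together held 1 UMI of each ligand.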
